A study of Mus musculus with 27 samples.

Results

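Members of the BCL2 family set the threshold at which a cell enters the mitochondrial pathway of apoptosis, and 8 of them were followed here in cultured mouse fetal liver cells that lacked Rb1, p107 or both. They were chosen by name from the family's survival and death genes, with earlier results of these data known. They are Bcl2, Bcl2l1, which encodes BCL-XL, Mcl1, Bcl2l11, which encodes BIM, Bid, Bad, Bmf and Bak1. These are 8 of the 18193 genes that the arrays name, and 30 of the 45037 probe sets carry them. Bax, another gene of the family, had no probe set assigned to it alone and is not among them. The proteins BCL2, BCL-XL and MCL1 hold the death programme in check by binding their relatives. The BH3-only proteins BIM, BID, BAD and BMF answer to stress, loss of growth factors or proteolysis and either block these guardians or activate the effectors, of which BAK is one, to open the outer mitochondrial membrane. In fetal liver, which is mostly a blood-forming organ at this age, BCL-XL is known for keeping maturing red cells alive and MCL1 for keeping blood stem cells and progenitors alive, while BIM removes surplus blood cells when growth factors are withdrawn.

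Fetal livers at E14.5 (day 14.5 of gestation) were taken from wild type embryos (WT) and from embryos described as p107 KO, Rb1 KO and Rb1;p107 DKO, here p107KO, Rb1KO and DKO. Rb1 and Rbl1, the gene of p107, encode related pocket proteins that hold back E2F transcription factors. Cells of all 4 genotypes were grown without further treatment in one serum-rich medium, and total RNA was hybridised to Affymetrix arrays at 0, 24 and 48 h of culture. There were 3, 2 and 2 WT arrays at the 3 times, 2, 2 and 1 for p107KO, 5, 4 and 2 for Rb1KO, and 2, 1 and 1 for DKO, 27 in all. The sources used here do not state which part of either gene was altered, or in which cells. Nor do the labels tie the arrays of a group to different embryos or litters, so p-values measure the spread between these arrays, which may be technical.

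The targeted genes matched the labels in part. Rbl1 read 1619 ± 110 in WT at 0 h (SD, n = 3) and 70.3 to 147 in the group means of p107KO and DKO. Rb1 read 6609 ± 482 (SD, n = 3) in WT and 2109 ± 481 (SD, n = 5) in Rb1KO at 0 h, but at 48 h its mean was 6164 in WT, 4830 in Rb1KO and 5994 in DKO, so this probe set did not tell the labels apart at 48 h. The Y-linked genes Eif2s3y and Kdm5d were above a signal of 100 on 9 arrays. These were all 4 DKO arrays, 3 of 11 Rb1KO arrays, 2 of 5 p107KO arrays and none of the 7 WT arrays, so Y signal and genotype cannot be told apart in DKO against WT. The 4 arrays at 0 and 24 h with the lowest median correlation with the others of their time were taken to stand apart. These were Rb1KO 24 h replicate 1 (r = 0.9373), p107KO 24 h replicate 1 (0.9466), DKO 24 h replicate 1 (0.9515) and Rb1KO 0 h replicate 5 (0.9537). The number 4 was fixed by this rule, and 48 h arrays were not eligible. At 48 h, Rb1KO replicate 2 (0.9427), WT replicate 2 (0.9461), DKO replicate 1 (0.9493) and p107KO replicate 1 (0.951) were as low. All of these were below DKO 24 h replicate 1, and the DKO and p107KO arrays were the only ones of their groups. The liver label was borne out by hepatocyte genes at 0 h only, since all 14 hepatocyte markers tested fell within 24 h in WT, p107KO and Rb1KO, while red cell markers stayed bright throughout. In such bulk samples, fewer cells of a type and less RNA per cell cannot be told apart.

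On GRCm38.p6, Bcl2l11 lies at chr2:128126038-128162547, Bcl2l1 at chr2:152758732-152833803, Bmf at chr2:118528757-118549686, Bcl2 at chr1:106538176-106714290, Mcl1 at chr3:95656944-95663179, Bid at chr6:120893119-120917062, Bak1 at chr17:27019812-27028627 and Bad at chr19:6941861-6951905. Promoter windows of Bcl2l11 and Bcl2l1 are shown because these were the members that differed by genotype, and only their windows with a match are printed. The windows of Bcl2l11 at chr2:128127325-128127624 and of Bcl2l1 at chr2:152831679-152831978 held none of the letters searched. RefSeq gives 14 windows for the 8 genes, each from 250 bases before to 50 bases after a transcript start, and 4 kinds of letters were searched on both strands. E2F letters (TTTCCCGC, TTTGGCGC, TTTCGCGC or TTTGCCGC) were found in 1 of the 14 windows and in 2.27% of all 32851 RefSeq promoters. FOXO letters (GTAAACA) were found in 1 of 14 and in 3.65% of all, GATA letters (AGATAA) in 1 of 14 and in 11.2% of all, and STAT5 letters (TTCNNNGAA) in 0 of 14 and in 8.30% of all. The Bcl2l11 window below holds the FOXO letters, the first Bcl2l1 window the E2F letters and the second Bcl2l1 window the GATA letters, each in capitals. A match describes the letters and does not show binding. Each is written 5′ to 3′ along the gene's own strand.
Bcl2l11, chr2:128125788-128126087, plus strand: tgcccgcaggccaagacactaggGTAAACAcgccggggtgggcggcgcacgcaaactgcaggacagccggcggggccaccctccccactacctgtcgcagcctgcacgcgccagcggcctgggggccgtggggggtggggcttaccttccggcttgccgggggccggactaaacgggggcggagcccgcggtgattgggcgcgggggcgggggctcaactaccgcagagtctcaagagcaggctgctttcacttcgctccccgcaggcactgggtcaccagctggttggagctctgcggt
Bcl2l1, chr2:152830668-152830967, minus strand: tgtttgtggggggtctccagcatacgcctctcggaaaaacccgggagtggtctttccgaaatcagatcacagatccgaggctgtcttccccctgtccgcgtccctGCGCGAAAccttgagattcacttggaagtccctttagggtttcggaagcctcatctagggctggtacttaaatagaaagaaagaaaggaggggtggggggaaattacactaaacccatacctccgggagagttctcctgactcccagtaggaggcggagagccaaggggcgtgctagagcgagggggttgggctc
Bcl2l1, chr2:152828440-152828739, minus strand: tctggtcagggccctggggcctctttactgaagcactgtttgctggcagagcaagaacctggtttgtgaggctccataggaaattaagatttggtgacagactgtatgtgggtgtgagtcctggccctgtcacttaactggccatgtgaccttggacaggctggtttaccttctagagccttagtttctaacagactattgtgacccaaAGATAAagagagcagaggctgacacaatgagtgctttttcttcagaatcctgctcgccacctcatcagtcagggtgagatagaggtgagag

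Levels are the authors' MAS5 signals, scaled so that each array has about the same trimmed mean. A gene was followed by its brightest probe set, and changes are differences of log2(signal + 32), which understate the change of dim genes such as Bcl2 and Bmf. A change was called when its adjusted p was under 0.05, by limma with Benjamini-Hochberg adjustment over the 10916 genes tested, all two-sided. All 8 members were bright enough to be tested. Mean signals over the 27 arrays were 8164 for Mcl1, 4282 for Bcl2l1, 1581 for Bcl2l11, 751 for Bid, 671 for Bad, 510 for Bak1, 177 for Bmf and 127 for Bcl2. Because every probe set binds its target differently, these signals do not rank the genes against each other.

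Bcl2l11, the gene of the BH3-only protein BIM, was higher in Rb1KO than in WT cells after 24 and 48 h of culture. In WT the Bcl2l11 signal was 1599, 1285 and 1504 at 0 h, 912 and 580 at 24 h, and 1177 and 827 at 48 h. In Rb1KO it was 1177, 2090, 1666, 1078 and 1897 at 0 h, 1918, 1778, 1601 and 2165 at 24 h, and 2895 and 3257 at 48 h. The genotypes overlapped at 0 h, and every Rb1KO array was above every WT array at 24 h and at 48 h. Averaged over the 3 times, Bcl2l11 was 1.00 ± 0.14 (SE) higher on the log2 scale in Rb1KO, 1.99-fold, with adjusted p = 1.56e-05. It was the only one of the 8 members called in this comparison, in which 18.9% of all genes tested were called. Over the 8 members the median difference was -0.12, beside -0.07 over all genes tested.

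**Figure D1:**
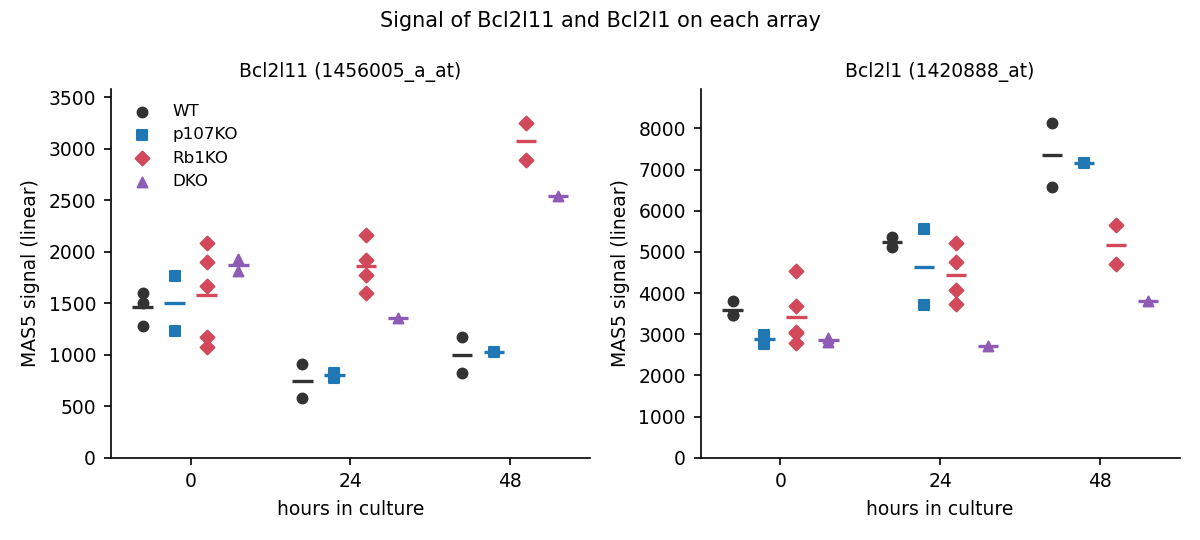
MAS5 signal of Bcl2l11 (BIM) and Bcl2l1 (BCL-XL) on each of the 27 arrays against hours of culture; points are arrays, colours are genotypes and bars are group means. Bcl2l11 is higher in Rb1KO than in WT at 24 and 48 h without overlap, and Bcl2l1 is higher at 48 h than at 0 h in WT and Rb1KO.

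At 0 h the difference was 0.07 ± 0.20 on the log2 scale (adjusted p = 0.975), and no member was called at that time, where 0.614% of genes were. At 24 h Bcl2l11 was 1.31 ± 0.24 higher in Rb1KO, 2.48-fold (adjusted p = 0.00105), again as the only member called against 7.63% of genes. At 48 h it was 1.61 ± 0.27 higher, 3.04-fold (adjusted p = 0.000321), and it was the only member called against 10.4% of genes. Without WT 24 h replicate 2, the lowest Bcl2l11 array of all, the 24 h difference was 1.00 and its adjusted p was 0.0705. Without the 4 arrays that stood apart the difference over all times was 0.97. Without the 9 arrays with Y signal the difference at 24 h was 1.33 (adjusted p = 0.0133). It was 0.96 over all times and 1.52 at 48 h, where 1 Rb1KO array was left.

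Whether the difference itself changed with time was tested as an interaction. From 0 to 48 h the Rb1KO difference in Bcl2l11 rose by 1.54 ± 0.34 on the log2 scale (adjusted p = 0.00986), 1 of the 8 members called where 3.48% of genes were. That call was lost without the arrays with Y signal (1.48), without WT 48 h replicate 2 (1.29) and without Rb1KO 48 h replicate 2 (1.45). Each of these left 1 array in a 48 h group. From 0 to 24 h the rise was 1.24 ± 0.31 and was not called (adjusted p = 0.0612), with 0 of 8 members called by limma, 1 of 8 at an unadjusted p under 0.05, and 0.824% of all genes called. From 24 to 48 h it was 0.29 ± 0.36 (adjusted p = 0.992), with 0 of 8 members called, 0 of 8 at an unadjusted p under 0.05, and 0.0458% of genes called.

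None of the other 3 BH3-only members, Bid, Bad and Bmf, was called in Rb1KO against WT. Bid, whose protein is cut by caspase 8 to reach mitochondria, read 1063 and 923 in WT and 733 and 714 in Rb1KO at 48 h, without overlap, and the difference of -0.44 ± 0.23 was not called (adjusted p = 0.275). Bad, whose protein is inactivated by growth factor kinases, lay between 438 and 844 on all 27 arrays, and its difference over all times was -0.06 ± 0.11 (adjusted p = 0.777). Bmf, whose protein is kept at the actin cytoskeleton until stress frees it, lay between 82.9 and 334, with a difference of 0.02 ± 0.20 (adjusted p = 0.966). The effector Bak1 differed by -0.36 ± 0.21 (adjusted p = 0.235), and its Rb1KO arrays at 24 h spread from 167 to 609.

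**Figure D2:**
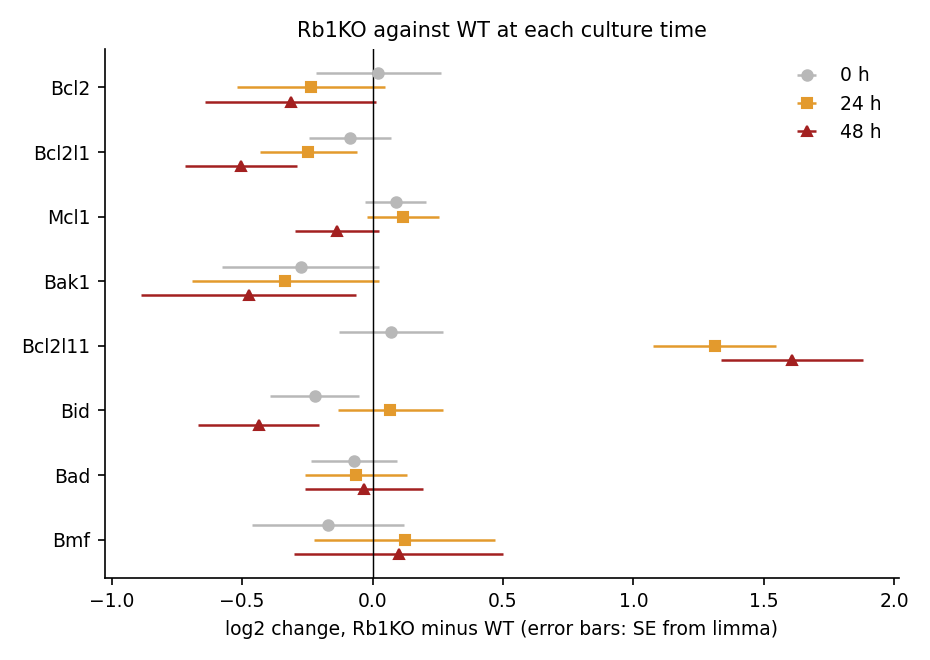
Difference Rb1KO minus WT on the log2(signal + 32) scale, with SE, for the 8 members at 0, 24 and 48 h of culture. Bcl2l11 is the only member whose difference is called, 1.31 at 24 h and 1.61 at 48 h.

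Among the guardians, Bcl2l1 was not called in Rb1KO against WT. It was lower with Rb1 loss when both p107 backgrounds were joined, a comparison added after the values were seen. In WT its signal was 3462, 3810 and 3472 at 0 h, 5364 and 5111 at 24 h, and 6581 and 8141 at 48 h. In Rb1KO it was 3027, 3695, 3053, 4541 and 2782 at 0 h, 5223, 3729, 4761 and 4077 at 24 h, and 4695 and 5653 at 48 h. The groups overlapped at 0 and 24 h and were apart at 48 h, where Rb1KO was lower by -0.50 ± 0.21 on the log2 scale without passing the test (adjusted p = 0.154). Over all times the difference was -0.28 ± 0.11 (adjusted p = 0.0748). It passed when the 4 arrays that stood apart were left out (adjusted p = 0.0264), and at -0.31 when Rb1KO 0 h replicate 4 alone (adjusted p = 0.0277) or the first Rb1KO array at 24 h alone (adjusted p = 0.0438) was left out.

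On the p107-null background Bcl2l11 was higher and Bcl2l1 lower where Rb1 was also lost. Bcl2l11 in p107KO was 1231 and 1767 at 0 h, 779 and 824 at 24 h and 1029 at 48 h, and in DKO it was 1929 and 1815, 1358 and 2547 at these times. DKO was above p107KO on every array at each time, by 0.79 ± 0.19 on the log2 scale (1.72-fold, adjusted p = 0.0121). Bcl2l1 was 2774 and 2989 at 0 h, 5546 and 3708 at 24 h and 7151 at 48 h in p107KO, against 2819 and 2914, 2723 and 3805 in DKO. The DKO values lay between the p107KO arrays at 0 h and below them at 24 and 48 h, and Bcl2l1 was 1.46-fold lower in DKO over all times (log2 difference -0.55 ± 0.15, adjusted p = 0.0284). Here 2 of the 8 members were called, against 7.00% of genes, and DKO rests on 1 array at 24 h and 1 at 48 h. In a fit of every probe set, with p-values adjusted over all 45037, 1 of the 30 member probe sets was called higher and 0 lower. In that fit 2.32% of all probe sets were called, and no Bcl2l1 probe set was called lower. The Bcl2l1 call was lost without p107KO 24 h replicate 1 (-0.45, adjusted p = 0.0802), p107KO 0 h replicate 2 or either DKO array at 0 h.

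None of the 8 members was called for the loss of p107. In p107KO against WT over all times, limma called 0 of 8 members and 0.0183% of genes, while 1 of 8 members and 708 genes had an unadjusted p under 0.05. That member was Bid, whose p107KO arrays at 24 h read 680 and 900 against 446 and 462 in WT, with a difference over all times of 0.36 ± 0.14 (adjusted p = 0.633). In DKO against Rb1KO, 0 of 8 members were called, 2 of 8 had an unadjusted p under 0.05, and 0.999% of genes were called. Those 2 were Bcl2, at 0.65 ± 0.20 (adjusted p = 0.114), and Bcl2l1, at -0.45 ± 0.13 (adjusted p = 0.0939). In DKO against WT at 0 h, 0 of 8 were called, 0 of 8 had an unadjusted p under 0.05, and 0.183% of genes were called.

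A further 3 genotype comparisons were added after the values were seen. DKO against WT over all times called Bcl2l11 higher by 0.86 ± 0.18 (adjusted p = 0.00182) and Bcl2l1 lower by -0.73 ± 0.14 (adjusted p = 0.000888), 2 of 8 members where 13.3% of genes were called. All 15 Rb1-null arrays against all 12 Rb1-intact arrays, with p107 backgrounds and times weighted equally, gave Bcl2l11 at 0.89 ± 0.12 higher (1.85-fold, adjusted p = 6.24e-06) and Bcl2l1 at -0.41 ± 0.09 (1.33-fold lower, adjusted p = 0.00237), 2 of 8 members against 22.1% of genes. Bid was at -0.26 ± 0.10 and missed the threshold (adjusted p = 0.0677). The effect of Rb1 loss on the p107-null background minus that on the p107-intact background was called for 0 of 8 members and 0.00% of genes by limma, while 1 of 8 members and 495 genes had an unadjusted p under 0.05. These comparisons share their WT, p107KO and Rb1KO arrays with those above and are not separate evidence.

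Other cell types moved with some of these differences, and their part in them was not tested. Against the Rb1-intact arrays, the Rb1-null arrays had 11 of 14 hepatocyte markers lower (median log2 difference -0.81), 6 of 7 megakaryocyte markers lower (median -0.45), 5 of 9 stem and progenitor markers lower, and of 10 erythroid markers 1 higher and 1 lower (median 0.02). Of all genes tested, 22.1% were called in that comparison, counting both directions. In Rb1KO against WT over all times, 1 of 14 hepatocyte, 6 of 7 megakaryocyte, 1 of 10 macrophage and 0 of 9 neutrophil markers were lower. There 18.9% of all genes tested were called, counting both directions. The summed signal of the megakaryocyte markers ran from 67496 to 71565 in WT and from 44325 to 60998 in Rb1KO at 48 h, the time of the largest Bcl2l11 difference. At that time the summed hepatocyte signal ran from 11391 to 43876 in WT and from 4921 to 17698 in Rb1KO, and the defining marker Hnf4a was at 250 to 260 in WT and at 35.4 to 134 in Rb1KO. The stem and progenitor sum was apart at each time, at 6086 to 7870 in WT and 4273 to 5839 in Rb1KO at 0 h, at 9147 to 10716 in WT and 4314 to 6369 in Rb1KO at 24 h, and at 15014 to 21429 and 7834 to 7927 at 48 h. Over all times 2 of 9 of these markers were lower in Rb1KO. The macrophage sum overlapped at 48 h, with 14996 to 28340 in WT and 11931 to 25739 in Rb1KO, as did the mast cell and basophil sum, with 3882 to 5001 and 2485 to 5528.

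Over the first day of culture Bcl2 fell and Bcl2l1 rose, while Mcl1 was not called with its brightest probe set. Bcl2, a survival gene of lymphoid and progenitor cells, was dim and fell further, from 234, 126 and 165 at 0 h to 48.4 and 32 at 24 h in WT, and stood at 128 and 149 at 48 h. In Rb1KO it was 221, 155, 156, 139 and 207 at 0 h, 28.9, 12.3, 34.3 and 45.1 at 24 h, and 115 and 95.2 at 48 h. The 24 h arrays lay below all others of their genotype in both. The 24 h fall was -1.49 ± 0.30 on the log2 scale in WT (adjusted p = 0.000412) and -1.75 ± 0.22 in Rb1KO (adjusted p = 7.39e-07), and the rise from 24 to 48 h was 1.25 ± 0.33 (adjusted p = 0.00773) and 1.17 ± 0.28 (adjusted p = 0.00509). The WT and Rb1KO readings at 24 h lie under 91.8, the lowest mean of a gene tested, and whether they are above background is unknown. Bcl2 passed the filter on dim genes, with a mean of 127, through its other groups. The fall was called in every alternative that gave a value, but its size was not fixed, running from -2.08 to -0.95 in WT and from -2.62 to -1.08 in Rb1KO. In p107KO, with 120 and 96.7 at 24 h, the fall of -0.70 ± 0.33 was not called (adjusted p = 0.120). The WT rise was lost without WT 24 h replicate 2 or WT 48 h replicate 2. The Rb1KO rise was lost without Rb1KO 48 h replicate 1 or without the arrays with Y signal. With only the groups compared, both rises were lost (adjusted p = 0.0639 in WT and 0.108 in Rb1KO). The rises stayed called in 11 of 14 alternatives in WT and 13 of 16 in Rb1KO. The other 4 Bcl2 probe sets ran from 1.2 to 166.

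Bcl2l1 rose in culture. From 0 to 24 h it was up by 0.55 ± 0.20 on the log2 scale in WT (adjusted p = 0.0326), 0.39 ± 0.14 in Rb1KO (adjusted p = 0.0292) and 0.65 ± 0.21 in p107KO (adjusted p = 0.0261). These 24 h calls were lost with quantile normalisation in WT (adjusted p = 0.105) and in Rb1KO, with a mean over probe sets in WT (0.45, adjusted p = 0.168) and in Rb1KO (0.09, adjusted p = 0.707), without any 1 of several arrays in each, and, in p107KO, without p107KO 24 h replicate 1 (0.36, adjusted p = 0.362). Without the 4 arrays that stood apart the Rb1KO change was 0.24 (adjusted p = 0.147). They stayed called in 11 of 17 alternatives in WT, 11 of 21 in Rb1KO and 9 of 16 in p107KO. In the fit of every probe set, no Bcl2l1 probe set was called higher at 24 h against 0 h in WT or p107KO. From 0 to 48 h, a comparison added after the values were seen, Bcl2l1 was 2.04-fold higher in WT (1.03 ± 0.20, adjusted p = 0.00016) and 1.53-fold higher in Rb1KO (0.61 ± 0.18, adjusted p = 0.00764). The WT call held in all 17 alternatives and the Rb1KO call in 16 of 19. The latter was lost without Rb1KO 48 h replicate 2 (0.48, adjusted p = 0.124), without the arrays with Y-linked signal (0.44, adjusted p = 0.178) and with a mean over probe sets (0.52, adjusted p = 0.0603). All 48 h arrays lay above all 0 h arrays in each genotype. The difference between these 2 rises, -0.42 ± 0.27, was not called (adjusted p = 0.552).

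Bcl2l11 went the other way in WT and p107KO. It fell from 0 to 24 h by 0.97 on the log2 scale in WT (SE 0.25, adjusted p = 0.00375) and by 0.86 in p107KO (SE 0.27, adjusted p = 0.0212), with no overlap of the groups in either. The WT call was lost without WT 24 h replicate 2 (-0.66, adjusted p = 0.120), and the p107KO call without p107KO 0 h replicate 2 or either 24 h array. In Rb1KO the change of 0.27 ± 0.18 was not called (adjusted p = 0.225), and from 24 to 48 h Bcl2l11 rose by 0.72 ± 0.24 (adjusted p = 0.0330), a call kept under 11 of 18 alternatives. Between 0 and 48 h it rose 1.98-fold in Rb1KO (0.99 ± 0.23, adjusted p = 0.00106), while in WT the change was -0.55 ± 0.25 (adjusted p = 0.0723).

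Bid had the same dip as Bcl2 in WT. It read 857, 867 and 810 at 0 h, 446 and 462 at 24 h, and 1063 and 923 at 48 h, so that the 3 times did not overlap. It fell by 0.85 on the log2 scale (SE 0.21, adjusted p = 0.00300) and then rose by 1.07 ± 0.23 (adjusted p = 0.00192). In Rb1KO it read 817, 623, 814, 883 and 524 at 0 h, 577, 562, 363 and 439 at 24 h, and 733 and 714 at 48 h, where the 0 h and 24 h arrays overlapped. The Rb1KO fall was -0.56 ± 0.16 (adjusted p = 0.00471) and the later rise 0.57 ± 0.20 (adjusted p = 0.0474). The fall was lost with quantile normalisation, median centring or a mean over probe sets and stayed called in 18 of 21 alternatives. The rise stayed called in 7 of 18, with adjusted p from 0.00756 to 0.385, and was lost under each of those settings, with a replicate block, with no filter on dim genes, with only the groups compared, and on leaving out all Y-positive arrays, Rb1KO 24 h replicate 3 or 4, or either Rb1KO 48 h array. Bak1, Bad and Bmf were called in none of the culture comparisons. Bak1 read 504, 545 and 535 at 0 h, 449 and 475 at 24 h, and 695 and 753 at 48 h in WT, so the 48 h arrays were apart, and the change from 24 to 48 h was 0.61 ± 0.41 (adjusted p = 0.299).

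**Figure D3:**
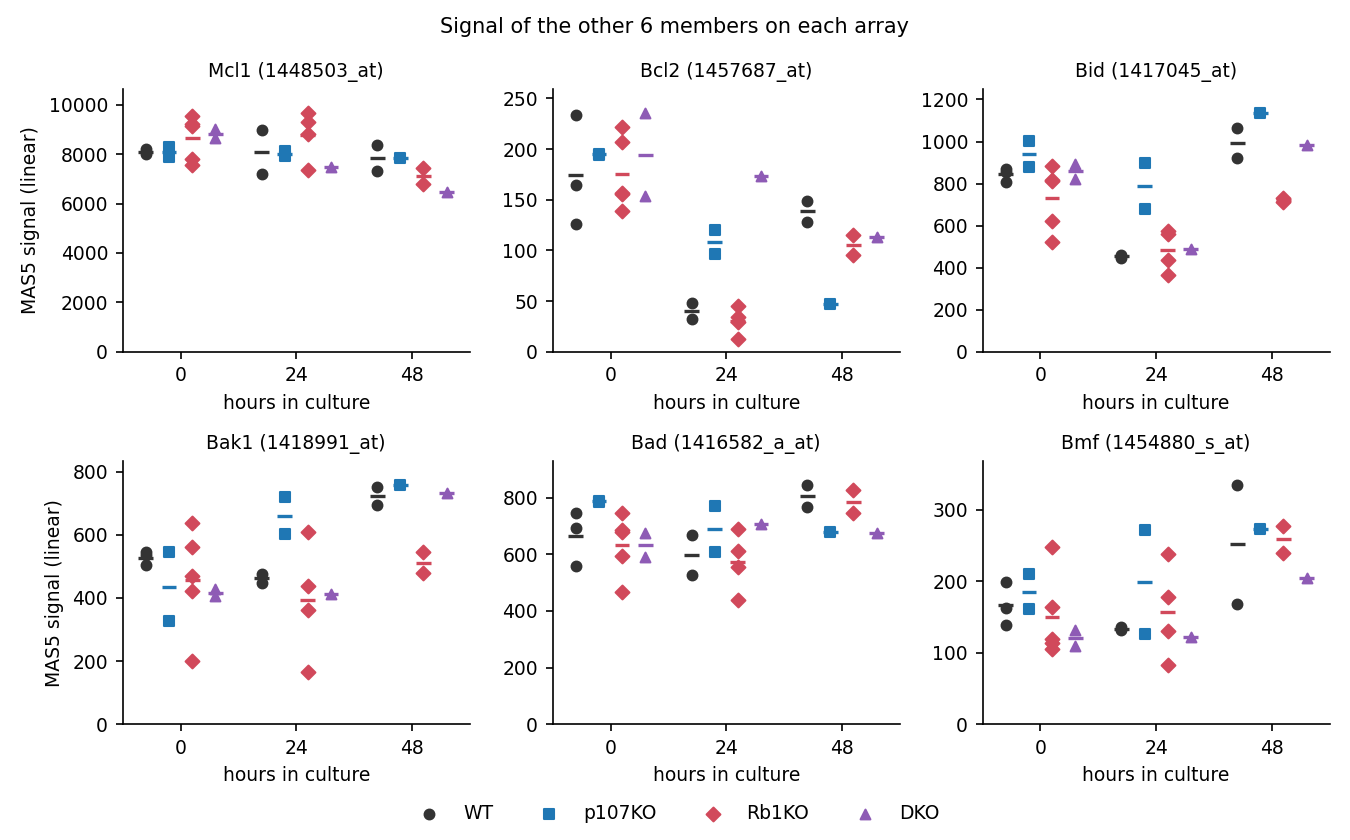
MAS5 signal of Bcl2, Mcl1, Bid, Bad, Bmf and Bak1 on each of the 27 arrays against hours of culture; points are arrays, colours are genotypes and bars are group means. Bcl2 and Bid are low at 24 h in WT and Rb1KO, and Mcl1 keeps to 6462 to 9668 on every array.

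Counted over the members, WT at 24 h against 0 h called 4 of 8 (1 higher, 3 lower) where 36.9% of genes were called. WT at 48 h against 24 h called 2 of 8, both higher, where 25.2% were. In Rb1KO these counts were 3 of 8 (1 higher, 2 lower) against 51.0%, and 3 of 8, all higher, against 21.0%. In p107KO at 24 h against 0 h they were 2 of 8 (1 higher, 1 lower) against 28.1%. Without the arrays with Y signal, these p107KO calls and the Rb1KO calls at 48 h against 24 h were lost. That left 1 p107KO array at each time and 1 Rb1KO array at 48 h. At 48 h against 0 h, WT called 1 of 8 against 49.8% and Rb1KO 2 of 8 against 47.4%. The members' median change from 24 to 48 h was 0.55 in WT and 0.52 in Rb1KO, beside 0.03 and 0.02 over all genes tested. Over the first day it was -0.22 in WT and -0.06 in Rb1KO, beside -0.08 and -0.09. From 0 to 24 h the hepatocyte markers fell 14 of 14 in WT (median log2 change -6.55), p107KO (-5.75) and Rb1KO (-6.27), and their summed signal in WT went from 241310 to 284180 down to 8157 to 8232. Macrophage markers fell too, 6 of 10 in WT and 7 of 10 in Rb1KO, while 6 of 10 erythroid markers rose in WT and 7 of 10 in Rb1KO. From 0 to 48 h 9 of 9 neutrophil markers rose in both genotypes. The part of these shifts in the members' changes was not tested.

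Mcl1, whose short-lived protein keeps blood stem cells and progenitors alive, gave an answer that depended on the probe set. Its brightest probe set, 1448503_at, read 8208, 7993 and 8097 in WT at 0 h, 8982 and 7203 at 24 h, and 8352 and 7330 at 48 h. No Mcl1 change was called with it in any comparison. Probe set 1416880_at read 4336, 4239 and 4201 at 0 h, 3235 and 2439 at 24 h, and 2925 and 2220 at 48 h in WT. In Rb1KO it read 4369, 3929, 4194, 4528 and 5249 at 0 h, 2330, 2664, 2801 and 2368 at 24 h, and 2560 and 2535 at 48 h. The cultured arrays lay below all fresh ones.

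In a fit of every probe set, with p-values adjusted over all 45037, Mcl1 probe set 1416880_at fell within 24 h by 0.59 on the log2 scale in WT (SE 0.16, adjusted p = 0.0102), by 0.80 in Rb1KO (SE 0.12, adjusted p = 9.99e-06) and by 0.56 in p107KO (SE 0.17, adjusted p = 0.0371). Its 48 h change against 0 h was -0.73 in WT (adjusted p = 0.00108) and -0.79 in Rb1KO (adjusted p = 0.000206). In Rb1KO 3 further Mcl1 probe sets, whose names end in x_at because they may share probes with other transcripts, were lower at 24 h: 1437527_x_at by -0.57 (adjusted p = 0.00497), 1456243_x_at by -0.54 (adjusted p = 0.0085) and 1456381_x_at by -0.57 (adjusted p = 0.0101). Probe set 1416881_at was at -0.01 and 1448503_at at 0.02, and neither was called. In the 3 x_at probe sets Rb1KO 0 h replicate 5, 1 of the arrays that stood apart, was above the rest of its group, at 11601 against 6716 to 7833 in 1437527_x_at. With that array left out, a fit added after the values were seen, the 3 changes were -0.43, -0.40 and -0.40 and stayed called (adjusted p = 0.0121, 0.0218 and 0.0237). The difference in 24 h change between Rb1KO and WT was called for no Mcl1 probe set (adjusted p from 0.767 to 0.988). The sources used here do not say which stretch of the transcript each probe set reads. No Mcl1 probe set was called in Rb1KO against WT.

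**Figure D4:**
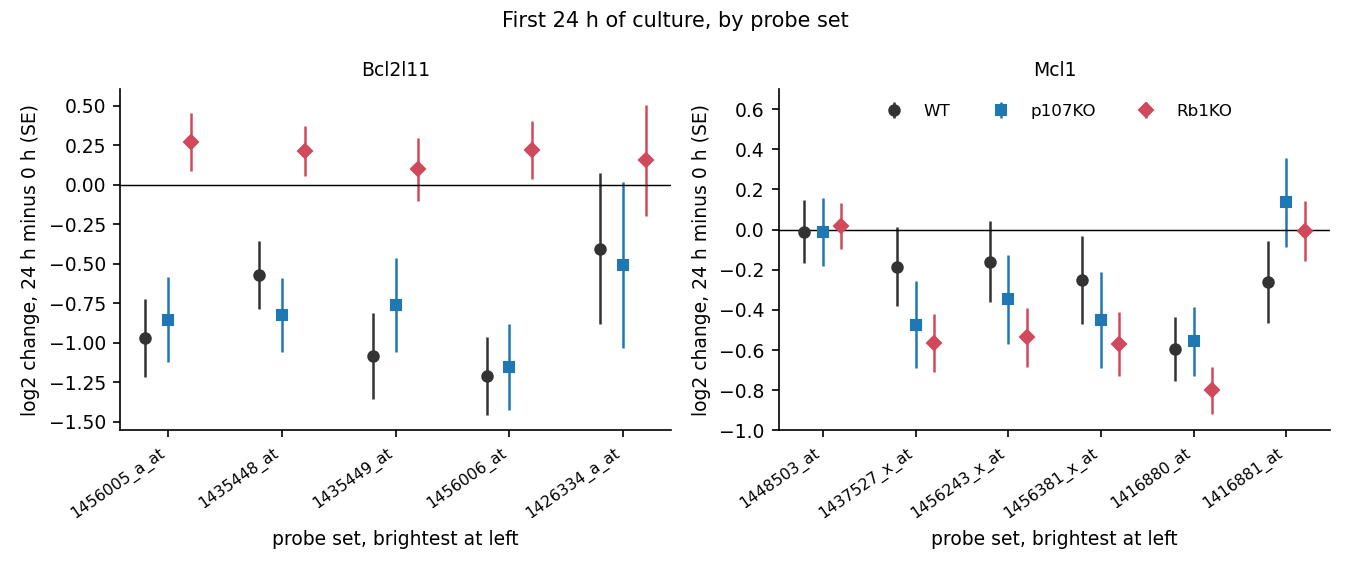
Change from 0 to 24 h on the log2(signal + 32) scale, with SE, for each probe set of Bcl2l11 (5) and Mcl1 (6) in WT, p107KO and Rb1KO. The brighter Bcl2l11 probe sets are below 0 in WT and p107KO and slightly above 0 in Rb1KO, and the Mcl1 probe sets disagree.

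The 4 brighter probe sets of Bcl2l11 were all higher in Rb1KO. In Rb1KO against WT over all times 4 of the 30 member probe sets were called, all higher and all of Bcl2l11, where 6.67% of all probe sets were called. The differences were 1.00 for 1456005_a_at, 0.69 ± 0.12 for 1435448_at (adjusted p = 0.000346), 0.68 ± 0.15 for 1435449_at (adjusted p = 0.00463) and 0.85 ± 0.14 for 1456006_at (adjusted p = 0.000176). The fifth, 1426334_a_at, was dim, with a mean signal of 80.5, and was not called (0.38 ± 0.27, adjusted p = 0.507). Probe set 1456006_at read 72.3 and 78.0 in WT and 299, 306, 195 and 284 in Rb1KO at 24 h, with no overlap. At 24 h 4 of 30 were called higher against 2.33%, and at 48 h 3 of 30 against 3.48%.

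With the Rb1-null arrays set against the Rb1-intact ones, 4 Bcl2l11 probe sets were higher and 3 of 4 Bcl2l1 probe sets lower, 7 of 30 where 8.10% of probe sets were called. For Bcl2l1 the differences were -0.41 for 1420888_at (adjusted p = 0.00514), -0.69 ± 0.18 for 1420887_a_at (adjusted p = 0.0158) and -0.64 ± 0.15 for 1426191_a_at (adjusted p = 0.00797), while the dim 1426050_at was at -0.05. At 48 h, 1420887_a_at read 2201 and 2653 in WT, 1253 and 1585 in Rb1KO and 939 in DKO. The same fit called 7 of 30 member probe sets, all lower, in WT at 24 h against 0 h, where 15.7% of probe sets were called. It called 1 higher and 7 lower in Rb1KO against 24.4%, and 4 lower in p107KO against 11.4%. At 48 h against 0 h it called 3 higher and 2 lower in WT against 23.0%, and 4 higher and 5 lower in Rb1KO against 21.5%.

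Among 10 other BCL2 family genes that could be tested, of 21 listed, Bbc3, the gene of the p53-induced BH3-only protein PUMA, was the one called in Rb1KO against WT. It was 1.19 ± 0.21 higher on the log2 scale at 0 h (adjusted p = 0.00568) and 0.43 ± 0.15 over all times (adjusted p = 0.0424), and its Rb1KO difference fell by 1.53 from 0 to 48 h (SE 0.36, adjusted p = 0.0173). At 48 h Bbc3 was at -0.35 ± 0.29 in Rb1KO against WT and was not called (adjusted p = 0.535). Over all times DKO was at -0.50 ± 0.21 against p107KO, not called, with 1 DKO array at 24 h and 1 at 48 h. At 0 h alone DKO was 0.80 ± 0.27 higher than WT without overlap, also not called (adjusted p = 0.591). Bbc3 rose in culture by 4.04 ± 0.27 in WT and 2.51 ± 0.25 in Rb1KO between 0 and 48 h. Pmaip1, the gene of the MCL1-binding BH3-only protein NOXA, rose by 1.85 ± 0.27 and 2.10 ± 0.25. In these 48 h comparisons 6 of 10 were higher and 0 lower in WT, and 4 of 10 higher and 0 lower in Rb1KO, where 49.8% and 47.4% of all genes were called.

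Of 25 apoptosome and caspase genes tested, 4 were higher and 3 lower in Rb1KO against WT over all times, where 18.9% of all genes tested were called. Casp2, an initiator caspase (0.71 ± 0.14, adjusted p = 0.000592), Birc5, the mitotic protein survivin (0.44 ± 0.08, adjusted p = 0.000662), and Xiap, a caspase inhibitor (0.49 ± 0.12, adjusted p = 0.00613), were higher. Aifm1, a mitochondrial flavoprotein (-0.44 ± 0.11, adjusted p = 0.00739), was lower. The median of the 25 was -0.05, beside -0.07 over all genes. Of 6 death receptor genes tested, Fasl, the ligand of the receptor FAS, was the one that differed. It was lower in Rb1KO by -2.35 ± 0.35 at 24 h (adjusted p = 0.000168) and by -1.52 ± 0.41 at 48 h (adjusted p = 0.0164), after a rise of 3.75 ± 0.37 in WT within 24 h. At these times 7.63% and 10.4% of all genes were called. At 0 h Fasl was 0.99 ± 0.30 higher in Rb1KO without overlap, and was not called (adjusted p = 0.244). The difference changed by -3.33 ± 0.46 from 0 to 24 h (adjusted p = 0.000331), where 0.824% of genes were called.

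Of 20 regulators upstream of the family, 5 were higher and 2 lower in Rb1KO against WT over all times, against 18.9% of all genes tested. E2f1, itself an E2F target gene, was higher by 0.80 ± 0.15 (adjusted p = 0.000588), Mapk8, the gene of the stress kinase JNK1, by 0.57 ± 0.12 (adjusted p = 0.00178), and Trim17, the gene of a ubiquitin ligase that acts on MCL1, by 0.86 ± 0.19 (adjusted p = 0.00255). Epor, the erythropoietin receptor, through which red cell precursors keep Bcl2l1 on, was lower by -0.52 ± 0.14 (adjusted p = 0.0106). At 48 h Foxo3, the gene of a factor known to switch on Bcl2l11 when growth factors are withdrawn, was -1.09 ± 0.27 lower in Rb1KO (adjusted p = 0.00833). The part of these regulators in the Bcl2l11 and Bcl2l1 differences was not tested. On the p107-null background, where 7.00% of all genes were called, 2 were higher and 2 lower, among them E2f1 at 0.80 ± 0.21 (adjusted p = 0.0208) and Epor at -0.77 ± 0.20 (adjusted p = 0.0155). In WT 8 of 20 rose and 5 fell within 24 h, where 36.9% of all genes were called, with Trib3 and Ddit3, which mark the stress response of the endoplasmic reticulum and of amino acid shortage, up by 5.47 ± 0.32 and 3.71 ± 0.17.

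Across the 12 group means the members did not move as 1 block. Pearson's r between members ran from -0.61 for Bcl2 with Bcl2l1 to 0.75 for Bak1 with Bmf, given as a description since the points share arrays and culture times. Of the 10915 other genes, those most alike to Bcl2l11 over the 12 group means were Tsc1 (r = 0.94), Phf2 (0.93) and Sox12 (0.93). Those most alike to Bcl2l1 were Susd6 (0.99), Dcaf12 (0.98) and Anxa7 (0.98), to Bcl2 Rubcn (0.93), Rxylt1 (0.91) and Thbd (0.90), and to Bid Neu1, Gorasp2 and Papss1 (0.96 each). For Mcl1 they were 2310033P09Rik (0.91), Tprgl (0.90) and Thada (0.89). Bak1 was most like Tbc1d4 (0.95), Rasal3 (0.94) and Zfp715 (0.93), Bad like Csf1r (0.86), Mcee (0.84) and Btbd9 (0.82), and Bmf like Nkg7, Tmem106a and Pglyrp1 (0.94 each).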

How the data were processed

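RNA of 27 fetal liver cell samples was measured on Affymetrix arrays. The deposited values are the authors' intensities; per the submitters' processing notes these are MAS5 values from GCOS 1.4, and each array's trimmed mean lies between 491.9 and 497.7. Probe sets were named through the platform annotation: 34945 carry 1 symbol, 932 several and 9160 none. Each gene was taken by its probe set of highest mean, the dimmest 40% of genes were left out, and log2(intensity + 32) was fitted in limma 3.58.1 (R 4.3.3; lmFit, contrasts.fit, eBayes with trend) with 1 mean per group over all arrays, with 15 residual and 7.17 prior degrees of freedom. The lowest mean intensity of a gene tested was 91.84. A second fit took every probe set without a filter. The fits were tested on simulated data. The number of arrays limits the precision. The members, gene lists and cell markers were chosen with earlier results of these data known. Named genes are the members, up to 4 genes of each pathway list with the smallest adjusted p in a comparison, and the 3 genes most alike to each member. In all 21 comparisons were made, 5 of them added after values were seen. Alternatives were another pseudocount, filter, scaling or probe set rule, array weights, only the groups compared, a replicate block, and arrays left out. Replicate numbers were not taken to pair samples, as the labels do not state a pairing. Deviations from group means correlated at -0.17 to 0.42 over 76 same-numbered pairs (median 0.02, 19 above 0.1). Over 175 other pairs they correlated at -0.42 to 0.30 (median -0.02, 22 above 0.1). The share above 0.1 was larger among same-numbered pairs, so a pairing is not excluded. Listed genes that were unmatched or too dim are not used here. Figures used Python 3.11.15 and matplotlib 3.10.9.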

Additional observations from a re-analysis of the deposited data

Results flagged for a closer look

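Of 60 sets of 4 or 5 arrays by member probe set, 7 held an array far from the rest of its group by Dixon's test. Chance flags about 1 in 20 such groups. Rb1KO 0 h replicate 5, one of the 4 arrays that stood apart, was high in 3 Mcl1 probe sets, at 11601 against 6716 to 7833 in 1437527_x_at, 10438 against 6025 to 7246 in 1456243_x_at and 8620 against 4559 to 5430 in 1456381_x_at. It was also high in Bid probe set 1447873_x_at, at 116 against 74.7 to 85.8. Rb1KO 24 h replicate 1, another of the 4, was high in Bcl2l11 probe set 1435448_at, at 1325 against 777 to 870. Rb1KO 24 h replicate 2 was high in Bcl2 probe set 1437122_at, at 23.5 against 6.4 to 7.8, and in 1440770_at, at 62.9 against 11.7 to 19.0, both dim. The Rb1KO difference in Bcl2l11 differed between culture times, by 1.54 on the log2 scale from 0 to 48 h in the test of the interaction.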

How the results depend on the processing

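Under every alternative that could be run, including each array left out in turn, Bcl2l11 kept its call in Rb1KO against WT over all times. Bcl2l11 and Bcl2l1 kept theirs in Rb1-null against Rb1-intact under the 34 alternatives that could be run. No comparison could be run without the only array of 1 of its groups, as at DKO 24 h, DKO 48 h and p107KO 48 h. The weight of these single arrays in the comparisons that use them was therefore not tested. Elsewhere the number of the 8 members called moved as follows, and the cause was not tested. With array weights it went from 1 to 2 in Rb1KO against WT over all times, from 0 to 2 in DKO against Rb1KO, from 0 to 1 in the Rb1KO difference of 24 h minus 0 h and from 1 to 2 in WT at 48 h against 0 h. With median centring it went from 2 to 1 in DKO against p107KO and in p107KO at 24 h, and from 1 to 2 in WT at 48 h against 0 h. With quantile normalization it went from 3 to 1 in Rb1KO at 24 h, from 1 to 2 in WT and from 2 to 4 in Rb1KO at 48 h against 0 h. With the mean over probe sets, which put Bcl2 and Bmf below the filter, it was 2 in WT, 1 in Rb1KO and 1 in p107KO at 24 h against 0 h, 1 in Rb1KO at 48 h against 24 h, 1 in the difference of 24 h minus 0 h and 2 in WT at 48 h against 0 h. With only the groups compared it was 1 in DKO against p107KO, 1 in WT and 1 in Rb1KO at 48 h against 24 h, 1 in p107KO at 24 h and 3 in WT at 48 h against 0 h. With 60% of genes left out it was 1 in WT at 48 h against 24 h. Leaving out arrays with Y signal left 1 p107KO array at each time and 1 Rb1KO array at 48 h. Calls were then lost in Rb1KO at 48 h against 24 h and against 0 h. They were also lost in p107KO at 24 h and in the difference of 48 h minus 0 h. No comparison with DKO could be made without these arrays, nor one of DKO over all times without the 4 arrays apart. Without the 4 arrays that stood apart the number called was 2 in Rb1KO against WT over all times and 1 in the difference of 24 h minus 0 h. The p107KO calls at 24 h were lost, with 1 p107KO array left at that time. The replicate block took Rb1KO at 48 h against 24 h from 3 to 1 and changed no other count by over 1.5 times. With each array left out in turn, the count ran from 1 to 2 in Rb1KO against WT over all times, 0 to 1 at 24 h and 1 to 1 at 48 h, 1 to 2 in DKO against p107KO, 2 to 4 and 1 to 2 in WT at 24 h against 0 h and 48 h against 24 h, 2 to 3 and 0 to 3 in Rb1KO, 0 to 1 in p107KO at 24 h, 0 to 1 in the differences of 24 h and of 48 h minus 0 h, 2 to 3 in Rb1-null against Rb1-intact, 1 to 2 in WT and 1 to 3 in Rb1KO at 48 h against 0 h. It was 2 throughout in DKO against WT over all times, where the single DKO arrays at 24 h and 48 h could not be left out, and 0 throughout in the remaining comparisons. Signs that turned while the change moved by over 1 SE were of changes that were not called by the reported fit. With the mean over probe sets they were -0.14 for Bcl2l11 in the difference of 48 h minus 24 h; for Mcl1 -0.071 in Rb1KO against WT at 24 h, -0.41 in Rb1KO at 24 h against 0 h (adjusted p = 0.00224), -0.17 in the difference of 24 h minus 0 h and 0.0083 in that of 48 h minus 24 h; for Bak1 0.085 and for Bad 0.14 in Rb1KO against WT at 24 h; and for Bad -0.11 in DKO against Rb1KO, 0.18 in Rb1KO and 0.076 in p107KO at 24 h against 0 h. With median centring they were 0.25 in WT and 0.17 in p107KO at 24 h and 0.15 in WT at 48 h against 0 h for Mcl1, and 0.12 in WT and 0.11 in Rb1KO at 24 h for Bad. With quantile normalization they were -0.20 for Mcl1 in Rb1KO, and 0.069 in WT and 0.041 in Rb1KO for Bad, all at 24 h. Without arrays with Y signal Bid in p107KO at 24 h was 0.031. Without WT 24 h replicate 2 Mcl1 was -0.040 in Rb1KO against WT at 24 h and 0.15 in WT at 24 h against 0 h, without Rb1KO 24 h replicate 1 Bak1 was 0.088 in Rb1KO at 24 h, without WT 48 h replicate 2 Bmf was -0.33 in Rb1KO against WT at 48 h, and without p107KO 24 h replicate 1, or all 4 arrays apart, Bmf was -0.44 in p107KO at 24 h. The other ends of these ranges over left-out arrays were 0.28 for Mcl1 in Rb1KO against WT at 24 h, -0.17 for Mcl1 in WT at 24 h, -0.49 for Bak1, 0.53 for Bmf at 48 h and 0.50 for Bmf in p107KO. Median centring moved the median of all genes by 0.26 in WT, 0.25 in Rb1KO and 0.18 in p107KO at 24 h against 0 h, by 0.20 in WT and 0.11 in Rb1KO at 48 h against 0 h and by -0.14 in Rb1KO at 48 h against 24 h; quantile normalization moved it by 0.11 in WT at 24 h. The share of called genes that were higher went with median centring from 40.7% to 62.7% in WT, 40% to 61.2% in Rb1KO and 40.7% to 57.7% in p107KO at 24 h against 0 h, from 40.1% to 53.3% in WT at 48 h against 0 h, from 63.9% to 43.5% in Rb1KO at 48 h against 24 h, from 54.4% to 65.6% in Rb1KO against WT at 24 h, from 53.0% to 64.7% in Rb1-null against Rb1-intact and from 59.6% to 31.9% in DKO against Rb1KO. No array of the dim Bcl2 and Bmf probe sets has a detection call here, so signal over background limits what their changes show.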
